A study of Saccharomyces pastorianus with 12 samples.

Results

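The net change over a whole brewery propagation was taken as the difference between yeast sampled 30 h after inoculation and yeast sampled at inoculation. It rests on 6 of the 12 arrays of the series, 3 samples (A, B and C) labelled 0h and 3 labelled 30h, and the members were chosen by those sample titles alone. All samples were of the lager yeast Saccharomyces pastorianus, strain CB11, with no mutation or added agent named in the labels. The 0h yeast had just entered a vessel of 140 hl after aerobic growth in one of 8 hl. The 30h yeast had spent 30 h in the same wort, made from 80% malt and 20% maltose adjunct at 17° Plato. Both groups shared a temperature of 20 °C, 0.5 mg/l of added zinc and oxygen fed to hold 7 to 8 mg/l dissolved. The labels speak of triplicate samples from a vessel and name no separate propagations, so every p-value reflects how far these samples vary, possibly for technical reasons alone.

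Propagation is the stage in which a brewery grows yeast with oxygen to obtain enough cells for fermentation. Yeast given fresh, sugar-rich wort makes ribosomes and translation machinery, ferments even in the presence of oxygen because glucose represses respiration, and uses oxygen to make sterols and unsaturated fatty acids. When sugar, nitrogen or other nutrients run short, ribosome genes are shut down and genes for storage, stress defence and alternative nutrients are switched on. Lager yeast is a hybrid of S. cerevisiae and a second Saccharomyces species, and the array's yeast probes were designed on S. cerevisiae, so a signal sums whatever bound to them.

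A level below is a log2 signal after the 6 arrays were given 1 shared distribution by quantile normalisation, and a change is the 30h mean minus the 0h mean on that scale, with the limma standard error and n = 3 arrays per time. Levels are therefore relative within an array and carry no information on total mRNA per cell, and in such bulk samples fewer cells of a kind and less RNA per cell cannot be told apart. Background was the 95th percentile of the probe sets for Schizosaccharomyces pombe, a distant yeast that shares the array and that the labels do not place in this culture. Of 5635 S. cerevisiae genes with a probe set, 5444 had a mean above background and were tested.

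The arrays of the 2 times did not look alike before normalisation. The SD of the log2 signals over genes was 2.07 to 2.23 on the 0h arrays and 1.40 to 1.41 on the 30h arrays, and in deposited units the median gene read 129, 199 and 407 on 0h A, B and C, against 53.0, 74.4 and 68.2 on the later arrays. The ratio of 3′ to 5′ signal, which rises when RNA is degraded or copied incompletely, was taken as the median of 8 control genes. It came to 35.5 for array 0h A, 6.96 for 0h C, 1.88 for 0h B and 1.81 to 1.86 for the 30h arrays. Array 0h B stood apart in other controls: its spiked hybridisation control read 165, against 9439 to 11163 on the other 5 arrays, and its rRNA probe sets had a median of 2667, against 2.09 to 30.6. Across genes, which are no independent replicates, Spearman's rho was 0.975 between 0h B and 0h C, 0.747 and 0.780 between 0h A and those arrays, and 0.911 to 0.945 within 30h. Between a 0h and a 30h array rho was 0.282 to 0.388. For 83.1% of tested genes 0h A was the 0h array farther from the other pair than that pair was apart. Results are therefore also given against 0h B alone, with its spread assumed to be that of the 30h arrays, and without 0h A.

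Most tested genes differed between inoculation and 30 h. With limma and Benjamini-Hochberg adjustment at 0.05, 1484 genes (27.3%) were higher at 30h and 1594 (29.3%) lower, and the median change over all tested genes was -0.11. Against 0h B alone, 1447 (26.6%) were higher and 1455 (26.7%) lower; 1302 genes (23.9%) were called higher and 1281 (23.5%) lower in both fits. The sign of the change was the same with 0h B alone for 5054 of 5444 genes. Without 0h A the counts were 1778 and 1920. With the deposited signals left as they were, 270 genes were higher and 3279 lower, the median change over all genes was -1.87, and 709 of the genes called above changed sign, among them SUC2, MAL31, HSP12, COX5B, ELO1, DSE2 and HHO1. In 1692 genes (31.1%) every 30h array lay above every 0h array, and in 1805 (33.2%) every 30h array lay below.

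The direction of change followed how strongly a gene was expressed at 4 h, on arrays that entered neither group but had a range like that of the 0h arrays. Genes were split into 5 equal bins by their mean level on the 3 arrays taken at 4 h. The median percentile at 0h ran from 17.2 in the lowest bin to 85.3 in the top bin, so the bins also sort genes by their 0h level. In the lowest bin 53.1% of genes were called higher and 7.44% lower, and the median change was 1.19. In the top bin 8.36% were called higher and 56.8% lower, and the median was -1.16. The bins between ran in the same order. This level pattern moves with the difference in range between the arrays, and whether it reflects the yeast or the arrays cannot be told apart here. It bears on most gene groups: 122 of 128 ribosomal protein genes were in the top bin and 48 of 56 meiosis genes in the lowest. The top bin also held all 16 glycolysis genes, 34 of 37 respiratory chain and ATP synthase genes, 33 of 35 proteasome genes, 31 of 38 chaperone genes, 14 of 16 TCA cycle genes and 22 of 28 sterol genes, and the lowest bin held 24 of 36 mating genes. The share of a group called is given below to be read against 27.3% higher and 29.3% lower for all genes.

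**Figure D1:**
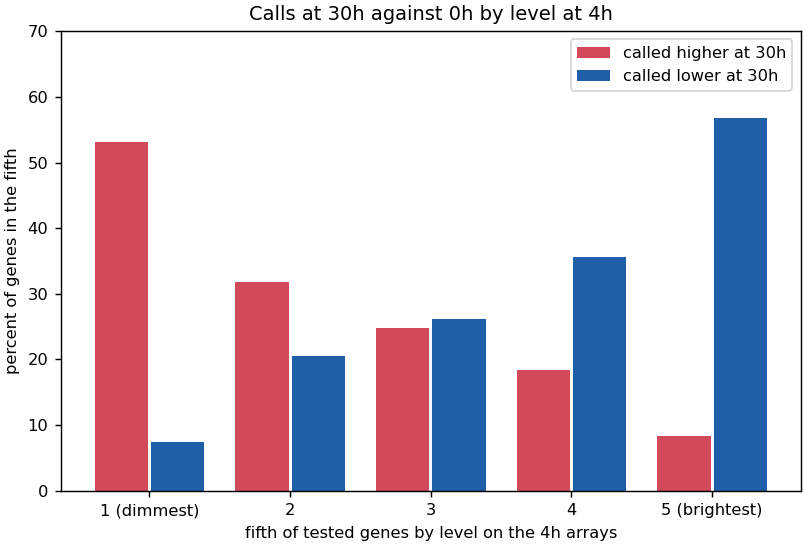
Percent of tested genes called higher or lower at 30h than at 0h (y axis) in 5 equal bins of genes ordered by their mean level on the 3 arrays at 4 h (x axis). The share called higher runs from 53.1% in the lowest bin to 8.36% in the top bin, and the share called lower from 7.44% to 56.8%.

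**Figure D2:**
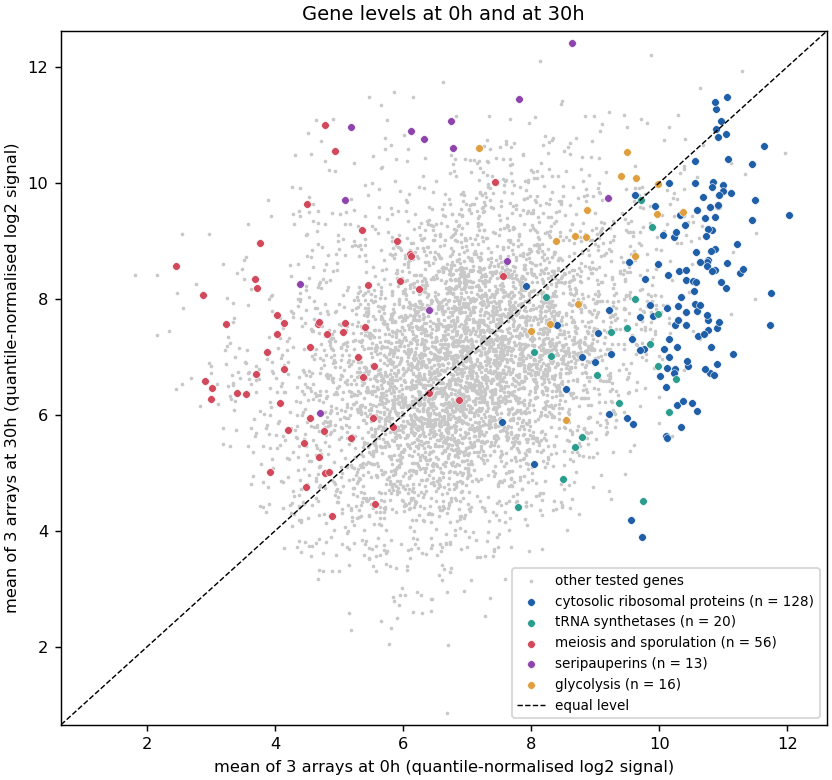
Mean normalised log2 signal of each tested gene at 0h (x axis) and at 30h (y axis), n = 3 arrays per time, with 5 gene groups coloured. Most ribosomal protein genes lie below the line of equal level, and most meiosis genes above it.

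The genes of the translation machinery were lower at 30h, nearly as a body. Of 128 tested genes for cytosolic ribosomal proteins, 108 fell and 0 rose, with a median change of -2.21. Against 0h B alone 107 fell and the median was -2.30, and without 0h A 112 fell. The large subunit had 67 of 75 genes lower, with a median of -2.20, and the small subunit 41 of 53, with a median of -2.27. RPL3, a core protein of the large subunit, read 9.76, 11.40 and 11.20 at 0h and 6.61, 6.79 and 6.76 at 30h. Arrays of the times did not overlap, and the gene fell by 4.07 ± 0.42 (adjusted p = 8.21e-05, limma). Its rank dropped from the 98.3rd percentile of the 5635 S. cerevisiae genes with a probe set to the 45.5th. RPL34A read 10.53, 10.16 and 10.31 at 0h and 5.48, 5.88 and 6.04 at 30h, a fall of 4.53 ± 0.29. RPL13A and RPS0A fell by 5.82 ± 0.84 and 5.37 ± 0.39, and both were above background on 2 of 3 arrays at 30h.

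Most yeast ribosomal proteins are encoded by a pair of near-identical genes, so probes may not separate the copies. By the names of the probe sets, 9 of the 128 genes were measured by probes marked as shared between genes. Of 50 pairs with both copies tested, 1 had probes so marked. In 35 pairs both copies were lower, 14 had 1 copy lower and 1 had neither. The median absolute difference between the changes of the copies was 1.33. RPS0A fell by 5.37 while the change of its copy RPS0B was -1.43 and did not pass the test. RPL40B and RPL40A had changes of -3.16 and 0.38, and RPL17A and RPL17B of -3.10 and 0.17.

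Enzymes that charge tRNAs with amino acids were lower to about the same extent: 16 of 20 fell and 0 rose, with a median change of -2.49. THS1, the threonyl-tRNA synthetase, read 9.08, 10.01 and 10.16 at 0h and 4.74, 4.47 and 4.36 at 30h, well separated, and fell by 5.23 ± 0.35 (adjusted p = 3.14e-05, limma). The glycyl and glutamyl enzymes GRS1 and GUS1 fell by 4.09 ± 0.27 and fell by 3.64 ± 0.36, in that order. Of 34 translation factors 24 fell and 1 rose, with a median of -2.32. SUP35, the release factor that ends translation, fell by 4.45 ± 0.51, and TIF5, an initiation factor, by 4.00 ± 0.52. The member that rose was HEF3, a second gene for elongation factor 3 that is usually little expressed. It read 4.32, 5.71 and 5.60 at 0h and 8.49, 8.98 and 9.26 at 30h, a rise of 3.70 ± 0.42 (adjusted p = 0.00012, limma). STM1, which protects idle ribosomes, and TMA7, a ribosome-associated protein, were among the 10 largest falls: STM1 fell by 4.56 ± 0.41 and TMA7 fell by 4.70 ± 0.43.

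Genes that build ribosomes were lower in smaller shares. Of 124 assembly factors of the nucleolus, 68 fell and 10 rose, with a median of -1.19. Against 0h B alone 82 fell and 7 rose, and without 0h A 93 fell. With arrays centred on their medians the number that rose was 2. EMG1, an rRNA methyltransferase, fell by 4.48 ± 0.53, and DBP9, a helicase, by 3.97 ± 0.42. MAK11, which acts in large-subunit assembly, did not exceed background at 30h, a difference of at least 17.1-fold (adjusted p = 3.16e-05, limma). The nucleolar protein gene NSR1 read 8.09, 10.21 and 10.07 at 0h and 7.05, 7.59 and 7.74 at 30h, with a change of -1.997 ± 0.53 that did not pass without 30h A. Of 25 genes for subunits of RNA polymerases I and III or for RRN initiation factors of polymerase I, 12 fell and 2 rose, with a median of -1.06. RPC53 and RET1 of polymerase III fell by 3.83 ± 0.50 and 3.43 ± 0.30, and RPC19, shared by both enzymes, by 2.92 ± 0.33.

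**Figure D3:**
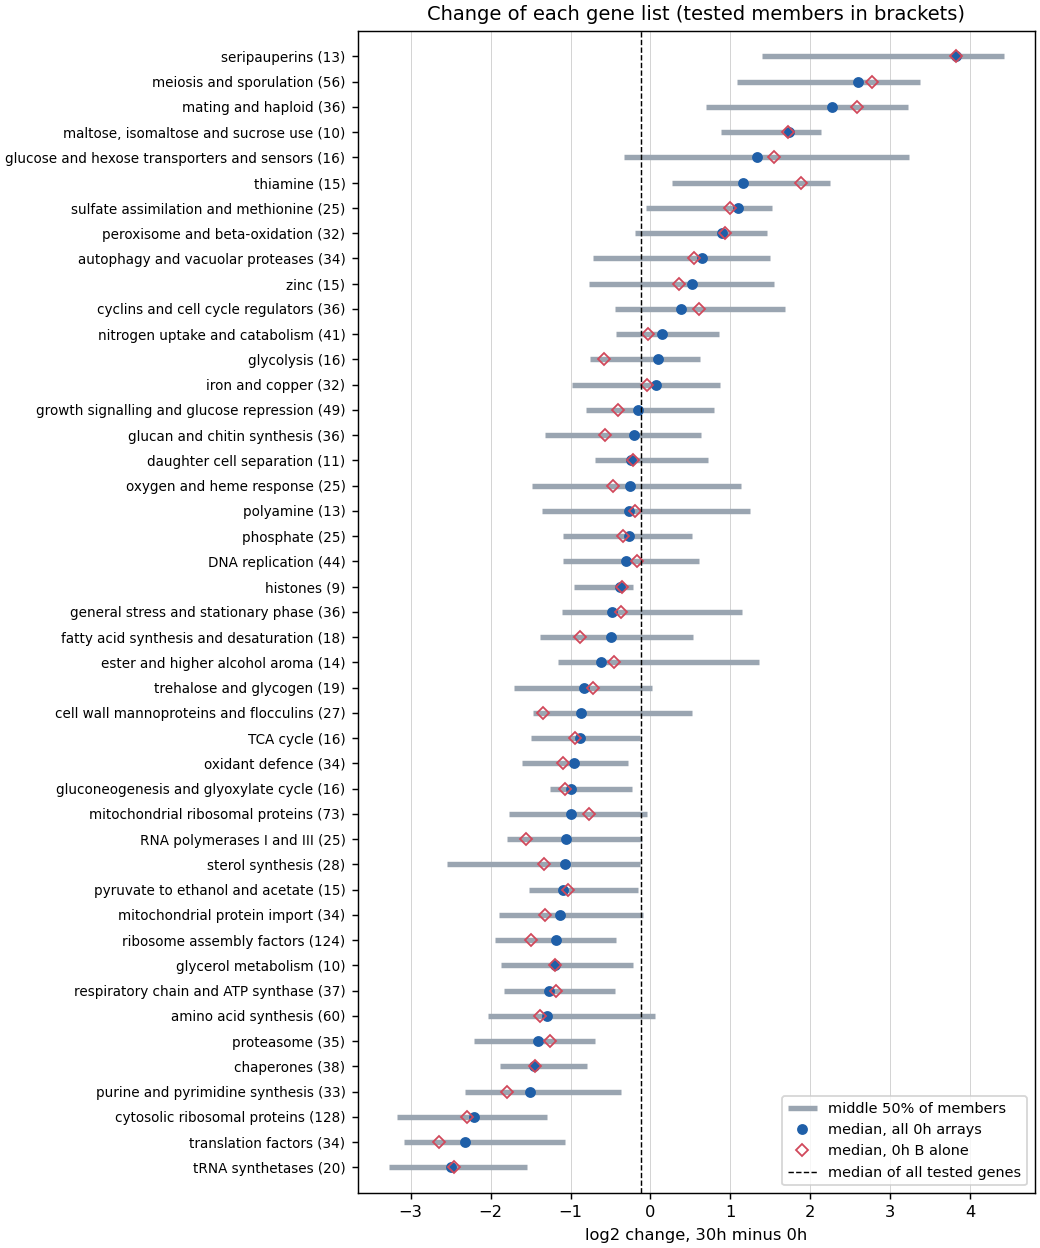
Median log2 change, 30h minus 0h, of the tested members of each gene group (points, with the interquartile range of members as bars), and the median against 0h B alone (diamonds). Translation groups have medians under -2, and the seripauperins, meiosis and mating groups lie above 2.

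Genes for taking up and splitting maltose, the main sugar of the wort, were higher at 30h. Of 10 genes for maltose, isomaltose and sucrose use, 7 rose and 1 fell, with a median change of 1.73, and 6 rose against 0h B alone. MAL11, a maltose and alpha-glucoside transporter, read 7.00, 7.26 and 7.22 at 0h and 10.62, 9.96 and 10.43 at 30h. All 30h arrays lay above all 0h arrays, a rise of 3.17 ± 0.29 (adjusted p = 4.95e-05, limma). MAL13, a regulator of the maltose genes, rose by 2.68 ± 0.31. MAL31, a maltose transporter, rose by 1.47 ± 0.28, and with arrays centred on their medians its change was 0.15 (adjusted p = 0.721, limma). SUC2, the secreted invertase, read 8.58, 9.07 and 9.31 at 0h and 11.16, 11.25 and 11.04 at 30h, a rise of 2.16 ± 0.29 that also did not pass with median centring. Maltose genes sit in several near-identical copies, so signals for MAL and IMA genes may be shared.

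Among 16 hexose transporter and sensor genes, 8 (50%) were called higher and 3 lower, and their median change was 1.34. In the lowest level bin, which holds 9 of these 16, 53.1% of all genes were called higher. Largest in this group were 3 rises: HXT14 by 5.19 ± 0.56, HXT8 by 5.15 ± 0.40 and HXT10 by 4.58 ± 0.66. At 0h these genes were above background on 2, 2 and 1 of the 3 arrays, in that order. HXT1, the transporter of high glucose, read 8.91, 9.31 and 9.58 at 0h and 8.28, 7.67 and 7.86 at 30h, a fall of 1.33 ± 0.31 (adjusted p = 0.00511, limma). HXT3, another transporter of abundant glucose, changed by 0.06 ± 0.34 and did not pass, with a change of -1.20 after median centring, and the signal named HXT7, a high-affinity transporter whose probes are shared, changed by -0.70 ± 0.40 and did not pass, although without 0h A it fell by 0.95 (adjusted p = 0.041, limma). Several HXT genes are close copies of each other.

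Most genes of the central glycolytic path did not pass the test in either direction. Of 16 tested, 2 rose and 2 fell, with a median of 0.10 that was -0.58 against 0h B alone. Without 0h A 7 fell, and with median centring 7 fell and the median was -0.99. TDH3, glyceraldehyde-3-phosphate dehydrogenase, read 6.74, 10.01 and 9.86 at 0h and 9.97, 8.90 and 9.71 at 30h. Arrays of the times overlapped and 0h A was the lowest of all 6 arrays; the change was 0.66 ± 0.77 (adjusted p = 0.487, limma), -0.48 against 0h B alone and -0.45 with median centring. PGI1, phosphoglucose isomerase, fell by 2.63 ± 0.35. PYK2, a pyruvate kinase that glucose represses, read 7.81, 6.66 and 7.07 at 0h and 10.76, 10.72 and 10.33 at 30h, a rise of 3.42 ± 0.35 (adjusted p = 7.48e-05, limma). HXK2, the main hexokinase, changed by 1.05 ± 0.42 and did not pass. Without 0h B it rose by 1.27 (adjusted p = 0.0429, limma), and with median centring its change was -0.49.

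Past pyruvate the genes were mainly lower. Of 15 genes for ethanol and acetate, 9 (60%) fell and 2 rose, with a median of -1.10. Without 0h B 6 fell, and against 0h B alone the median was -1.04. The top level bin, where 56.8% of all genes were called lower, held 8 of the 15. PDC1, pyruvate decarboxylase, fell by 1.52 ± 0.36, and ADH1, the alcohol dehydrogenase that makes ethanol, also by 1.52 ± 0.29. ADH2, the enzyme that consumes ethanol, read 7.41, 8.61 and 8.27 at 0h and 6.39, 6.25 and 6.28 at 30h, a fall of 1.79 ± 0.35. ADH3, its mitochondrial relative, fell by 1.58 ± 0.26, and ACS2, an acetyl-CoA synthetase, by 2.36 ± 0.47. Of 10 glycerol genes 6 (60%) fell and 2 rose, with a median of -1.20, and the top level bin held 6 of the 10. The members that rose were both of membrane transport: FPS1, the glycerol export channel, by 2.94 ± 0.26, and STL1, a glycerol importer, by 2.62 ± 0.40. GUT1, glycerol kinase, fell by 2.44 ± 0.49.

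Genes of storage carbohydrates, which yeast lays down when growth slows, were more often lower than higher. Of 19 trehalose and glycogen genes, 10 (52.6%) fell and 3 rose, with a median of -0.84. The top level bin, where 56.8% of all genes were called lower, held 11 of the 19. PGM2, phosphoglucomutase, read 8.20, 7.67 and 7.88 at 0h and 4.18, 5.27 and 4.07 at 30h, a fall of 3.41 ± 0.39 (adjusted p = 0.000121, limma). UGP1, which makes UDP-glucose, fell by 2.31 ± 0.31, and ATH1, a trehalase, by 2.69 ± 0.41. TPS1, the trehalose-phosphate synthase, fell by 1.70 ± 0.29, while GSY2, the main glycogen synthase, read 7.67, 7.59 and 8.03 at 0h and 7.83, 7.57 and 7.76 at 30h, with overlapping times and a change of -0.04 ± 0.28.

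Of 16 genes of gluconeogenesis and the glyoxylate cycle, 6 (37.5%) fell and 2 rose, with a median of -0.99, a share not far from the 29.3% of all genes. Leaving out 1 array gave 4 lower without 0h B and 9 without 0h A, and 0 rose without 0h B, 0h C, 30h B or 30h C. ICL1, isocitrate lyase, read 6.38, 7.02 and 6.64 at 0h and 0.09, -0.73 and 3.23 at 30h, where it was not above background on any array. It was at least 7.05-fold lower (adjusted p = 0.000771, limma). PCK1, which opens gluconeogenesis, fell by 1.51 ± 0.29, and IDP2, a cytosolic isocitrate dehydrogenase, by 3.25 ± 0.39.

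Of 37 ATP synthase and respiratory chain genes, 22 (59.5%) fell and 1 rose, with a median of -1.27. That share is about the 56.8% lower among all genes of the top level bin, where 34 of the 37 lie. Without 0h A 25 fell, and without 30h C 15. COR1 of complex III fell by 2.72 ± 0.46, and ATP7 and ATP20 of the ATP synthase fell by 2.55 ± 0.26 and 2.53 ± 0.44. Of 16 genes of the TCA cycle 9 fell and 1 rose, with a median of -0.88, again about the share of their bin. IDH2, a subunit of isocitrate dehydrogenase, fell by 2.46 ± 0.31, LSC1 of succinyl-CoA ligase by 2.01 ± 0.43, SDH4 of succinate dehydrogenase by 1.85 ± 0.32 and CIT1, citrate synthase, by 1.55 ± 0.28. Mitochondrial ribosomal proteins had 38 of 73 genes lower and 5 higher, with a median of -0.99. MRPL20 and RSM25 were not above background at 30h and were at least 7.16-fold and 5.39-fold lower, and MRPS12 fell by 3.49 ± 0.53. Of 34 genes for protein import into mitochondria 20 fell and 2 rose, with a median of -1.13. TIM12, TIM9 and TOM6 of the import complexes fell by 3.54 ± 0.40, 3.25 ± 0.31 and 3.05 ± 0.36.

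Genes that answer to oxygen and heme went both ways. Of 25, 8 rose and 7 fell, with a median of -0.25. Just 4 rose against 0h B alone and without 30h B, and 5 without 0h C or 30h A. Cytochrome oxidase carries 1 of a pair of subunits, COX5A with oxygen and COX5B without. COX5A read 7.47, 9.50 and 9.38 at 0h and 6.30, 5.74 and 6.82 at 30h, a fall of 2.50 ± 0.54 (adjusted p = 0.00366, limma). COX5B read 8.28, 7.36 and 7.54 at 0h and 8.59, 9.29 and 8.96 at 30h, a rise of 1.22 ± 0.34 (adjusted p = 0.0127, limma) that did not pass without 0h B, without 30h B or with median centring. AAC3, the ADP/ATP carrier used without oxygen, read 5.04, 4.92 and 5.24 at 0h and 9.44, 8.98 and 8.67 at 30h. Arrays of the times were far apart, with a rise of 3.96 ± 0.31 (adjusted p = 3.64e-05, limma). HAP1, the heme-dependent activator, fell by 3.31 ± 0.56, and YHB1, a flavohemoglobin that detoxifies nitric oxide, fell by 4.203 ± 0.50. Other genes used with little oxygen did not pass: HEM13 of heme synthesis changed by 1.02 ± 0.43, with a rise of 1.31 without 0h B (adjusted p = 0.0333, limma), and ANB1, an initiation factor gene, by -0.58 ± 0.31.

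Genes of protein folding and breakdown were lower in 65.8% and 68.6% of cases, against 56.8% in the top level bin where most of them lie. Of 38 chaperone genes 25 fell and 2 rose, with a median of -1.46; without 30h B 0 rose. SBA1, a partner of Hsp90, read 8.74, 9.34 and 9.58 at 0h and 5.06, 4.96 and 4.05 at 30h, a fall of 4.53 ± 0.37. SSZ1, a ribosome-bound Hsp70, fell by 3.32 ± 0.59, and HCH1, a regulator of Hsp90, fell by 2.90 ± 0.48. Of 35 proteasome genes 24 fell and 3 rose, with a median of -1.41; with median centring 0 rose. The core particle subunits PUP1 and PRE9 fell by 3.56 ± 0.37 and 3.37 ± 0.37, and PUP3 fell by 3.09 ± 0.64. Of 34 genes of oxidant defence 19 fell and 1 rose, with a median of -0.95, and without 0h A 24 fell and 5 rose. CCS1, which loads copper into superoxide dismutase, fell by 3.18 ± 0.44, and the glutaredoxins GRX1 and GRX3 fell by 3.06 ± 0.37 and 3.0 ± 0.45.

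General stress and stationary-phase genes had no common direction. Of 36, 8 rose and 9 fell, with a median of -0.48, and without 0h A 15 fell. SIP18, a protein of dried and salt-stressed cells, read 7.43, 4.99 and 5.17 at 0h and 11.50, 11.92 and 11.29 at 30h. Its rise of 5.71 ± 0.59 (adjusted p = 7.97e-05, limma) took it from the 30.0th to the 99.8th percentile. HSP12, a small membrane-protecting protein, was bright throughout, at 10.45, 9.35 and 9.62 at 0h and 11.15, 11.03 and 10.92 at 30h. It rose by 1.22 ± 0.33 (adjusted p = 0.0116, limma), but without 0h B it did not pass (adjusted p = 0.06, limma), and with median centring its change was -0.50. HSP26, a small heat-shock chaperone, read 5.44, 9.09 and 8.60 at 0h and 6.91, 5.45 and 5.49 at 30h. Here 0h A was the lowest array; the change of -1.76 ± 0.85 did not pass, whereas without 0h A the gene fell by 2.89 and against 0h B alone by 3.14. MOH1, induced in stationary phase, rose by 2.70 ± 0.32, and PNC1, a nicotinamidase, fell by 3.13 ± 0.27.

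**Figure D4:**
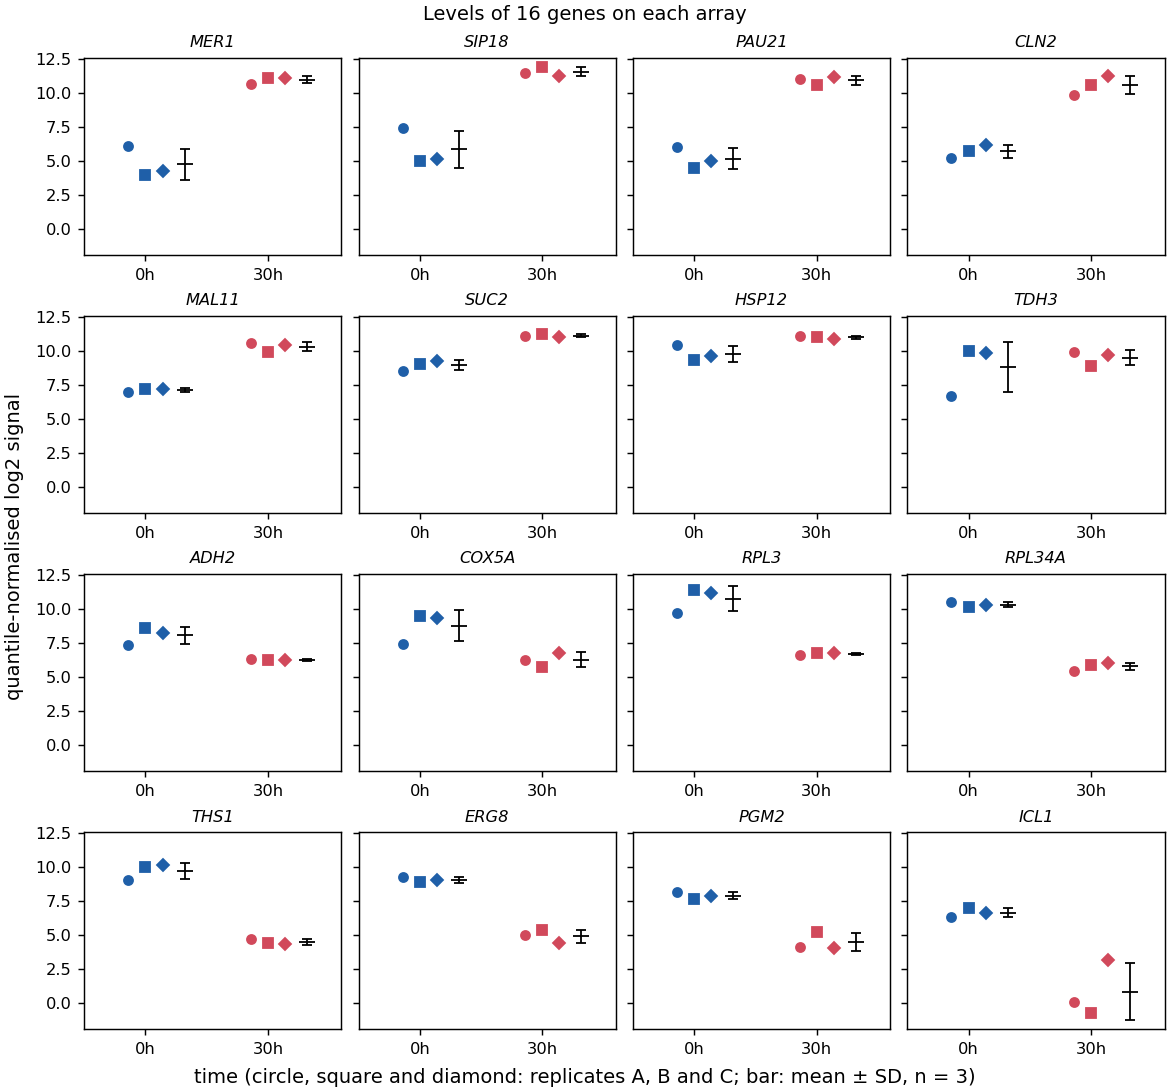
Normalised log2 signal of 16 genes on each 0h and 30h array (points), with group means, n = 3 per time. SIP18, PAU21 and MER1 rise with no overlap between times, RPL3, RPL34A and THS1 fall, and 0h A lies apart for TDH3.

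Sterol synthesis, which needs oxygen, was lower in 15 of 28 genes and higher in 3, with a median of -1.07. The share of 53.6% lower was about that of the top level bin, which holds 22 of the 28. Against 0h B alone 20 fell. ERG8 of the mevalonate pathway read 9.31, 8.90 and 9.05 at 0h and 5.06, 5.37 and 4.43 at 30h, a fall of 4.13 ± 0.33 (adjusted p = 3.64e-05, limma). ERG10, which starts that pathway, fell by 4.12 ± 0.56 and ERG27, a late-step enzyme, by 3.83 ± 0.40. ERG11, the lanosterol demethylase, changed by -0.53 ± 0.50 and did not pass, although against 0h B alone it fell by 1.16 (adjusted p = 0.0246, limma). Of 18 fatty acid genes 7 fell and 2 rose, with a median of -0.49. ACB1, an acyl-CoA carrier, fell by 3.14 ± 0.32 and FAA4, an acyl-CoA synthetase, fell by 2.96 ± 0.52, while the elongase ELO1 rose by 2.44 ± 0.29. OLE1, the fatty acid desaturase, changed by 0.04 ± 0.44, and by -0.60 against 0h B alone. Of 32 genes of the peroxisome and beta-oxidation, 14 rose and 5 fell, with a median of 0.89. OAF1 and PIP2, the paired activators of this pathway, rose by 2.55 ± 0.34 and 2.73 ± 0.45, and PEX3, needed to form the organelle, fell by 2.23 ± 0.36.

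Of 14 aroma genes for esters and higher alcohols 4 rose and 4 fell, with a median of -0.62. ATF1, the main acetate ester synthase, read 5.97, 6.09 and 6.03 at 0h and 7.84, 8.45 and 7.99 at 30h, a rise of 2.06 ± 0.29 (adjusted p = 0.000354, limma). EEB1, which makes ethyl esters of fatty acids, moved the other way and fell by 2.44 ± 0.34.

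Most genes of amino acid and nucleotide synthesis were called lower, in 58.3% and 57.6% of cases. The top level bin, where 56.8% of all genes were called lower, held 23 of the 60 amino acid genes. It also held 19 of the 33 purine and pyrimidine genes. Of 60 amino acid genes 35 fell and 7 rose, with a median of -1.29. LYS12 of lysine synthesis read 9.58, 9.47 and 9.57 at 0h and 5.11, 5.64 and 5.37 at 30h, a fall of 4.17 ± 0.28 (adjusted p = 3.14e-05, limma). ILV1, threonine deaminase, fell by 4.75 ± 1.07 and ASN2, asparagine synthetase, by 3.69 ± 0.49. Of 33 purine and pyrimidine genes 19 fell and 4 rose, with a median of -1.51; 2 rose without 30h A or 30h B and against 0h B alone. URA6, the uridylate kinase, fell by 5.36 ± 0.62, ADE8 and ADE1 of purine synthesis by 3.96 ± 0.52 and 3.67 ± 0.39, and APT1, which salvages adenine, by 4.55 ± 0.62.

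Sulfur genes ran the other way. Of 25 genes for sulfate assimilation and methionine, 13 rose and 5 fell, with a median of 1.09. MET4, the activator of the pathway, read 6.60, 7.10 and 7.17 at 0h and 9.28, 9.90 and 10.21 at 30h, a rise of 2.84 ± 0.33. The members that fell included SAM1, which makes S-adenosylmethionine, by 2.99 ± 0.58, and CYS3 of cysteine synthesis by 2.93 ± 0.59. Of 41 genes for nitrogen uptake and catabolism 11 rose and 8 fell, with a median of 0.14. OPT2, a peptide transporter, rose by 3.06 ± 0.27, whereas GLN1, glutamine synthetase, and GDH2, glutamate dehydrogenase, fell by 3.21 ± 0.47 and 3.15 ± 0.30. GAP1, the general amino acid permease, changed by -0.50 ± 0.37 and did not pass, although without 0h A it fell by 0.83 (adjusted p = 0.0209, limma). Of 34 genes of autophagy and vacuolar proteases 12 rose and 6 fell, with a median of 0.64. Without 0h B or 0h C 3 fell, and with all 12 arrays 10 fell. ATG12 and ATG10, which act in forming the autophagosome, rose by 2.93 ± 0.41 and 2.91 ± 0.44, and ATG22 of the vacuole by 2.75 ± 0.27.

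Among minerals and vitamins, thiamine genes were higher: 7 of 15 (46.7%) rose and 1 fell, with a median of 1.16. That share is below the 53.1% higher among all genes of the lowest level bin, where 9 of the 15 lie. THI72, a thiamine-related transporter, rose by 3.11 ± 0.34, THI3, a regulator, by 2.39 ± 0.38, and THI13, whose probes are shared with its copies, by 2.35 ± 0.33. Of 15 zinc genes 6 rose and 4 fell, with a median of 0.52 that was 0.02 with median centring; 2 fell without 0h B, 0h C, 30h B or 30h C. ZRT1, the high-affinity zinc importer, read 10.16, 10.31 and 10.33 at 0h and 10.06, 8.48 and 8.32 at 30h. It fell by 1.32 ± 0.44 (adjusted p = 0.0295, limma), a call carried by 30h B and C that did not pass against 0h B alone (adjusted p = 0.0602, limma) or without any of 0h B, 0h C, 30h B and 30h C. ZRC1, which loads zinc into the vacuole, fell by 3.40 ± 0.46, and VEL1 and IZH4, both linked to zinc supply, rose by 4.23 ± 0.35 and 2.57 ± 0.52.

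Of 32 iron and copper genes 9 rose and 9 fell, with a median of 0.07. Reductase genes FRE7 and FRE2 rose by 3.12 ± 0.32 and 2.79 ± 0.33, and FET3, the iron oxidase, fell by 2.70 ± 0.55. Of 25 phosphate genes 5 rose and 6 fell, with a median of -0.27, and without 0h A 10 fell. GIT1, an importer of glycerophosphoinositol, read 5.51, 2.78 and 3.40 at 0h and 9.90, 9.62 and 9.59 at 30h, a rise of 5.81 ± 0.61 (adjusted p = 8.23e-05, limma). PHO89, a phosphate importer, rose by 2.86 ± 0.44, PHO86, which helps the importer PHO84 leave the endoplasmic reticulum, fell by 2.29 ± 0.27, and PHO84 changed by 0.52 ± 0.39 and did not pass. Of 13 polyamine genes 4 rose and 3 fell, with a median of -0.26; 2 rose without 30h A. AGP2, which acts in polyamine and carnitine uptake, rose by 3.30 ± 0.40, and the synthases SPE4 and SPE3 fell by 2.70 ± 0.53 and 2.64 ± 0.31.

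At the cell surface the seripauperins, a family of small wall proteins known from cells short of oxygen, were higher in 12 of 13 genes and lower in 0, with a median change of 3.82. Against 0h B alone 10 rose, and without 0h A 13. PAU21 read 6.05, 4.50 and 5.02 at 0h and 11.08, 10.59 and 11.20 at 30h, a rise of 5.76 ± 0.41 (adjusted p = 3.14e-05, limma). PAU24 and PAU4 rose by 4.78 ± 0.31 and 4.60 ± 0.34. Because 10 of the 13 were measured by probes shared with other genes, these are not separate measurements of 13 transcripts.

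Of 27 mannoprotein and flocculin genes 11 fell and 5 rose, with a median of -0.86. The number that fell was 7 without 0h B, 0h C or 30h B, 6 without 30h C and 16 without 0h A, and 3 rose without 0h C, 30h A or 30h B. CWP1 and HSP150 of the wall fell by 3.83 ± 0.57 and 2.48 ± 0.35, and SRL1, another mannoprotein, rose by 2.53 ± 0.33. Of 36 genes of glucan and chitin synthesis 10 fell and 6 rose, with a median of -0.21, and without 0h A 17 fell. The largest changes were rises in genes used when spores form or expressed little in growth. GAS4, a spore-wall glucan enzyme, read 5.92, 4.52 and 4.38 at 0h and 10.58, 10.54 and 10.54 at 30h, a rise of 5.61 ± 0.41. FKS3, a glucan synthase relative, rose by 4.51 ± 0.35 and KNH1 by 3.83 ± 0.42.

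Of 36 cell cycle regulators, 13 (36.1%) rose and 6 (16.7%) fell, with a median of 0.38. Among all tested genes 27.3% rose and 29.3% fell. The lowest level bin, where 53.1% of all genes were called higher, held 11 of the 36, and the top bin held 0. Whether these regulators differ from other genes of like level was not tested. CLN2, a cyclin of entry into the cycle, read 5.23, 5.75 and 6.16 at 0h and 9.89, 10.62 and 11.23 at 30h. Arrays of the times were well separated, with a rise of 4.87 ± 0.40 (adjusted p = 3.75e-05, limma). CLB2, the mitotic cyclin, rose by 1.66 ± 0.33, NDD1, an activator of mitotic genes, by 3.83 ± 0.36, and FAR1, an inhibitor of the G1 cyclins, by 3.35 ± 0.52 having exceeded background on 1 of the 0h arrays. Of 44 genes of DNA replication 14 fell and 9 rose, with a median of -0.30. Just 9 fell against 0h B alone and without 0h C, and 8 fell without 30h B or 30h C. MCM5 of the replicative helicase was at least 7.32-fold lower and not above background at 30h, ORC2 of the origin complex fell by 2.26 ± 0.43, and CTF4, which ties helicase to polymerase, rose by 2.85 ± 0.27. Of 9 histone genes 3 fell and 1 rose, with a median of -0.39. With median centring 6 fell and the median was -1.76. HTZ1 and HHT2 fell by 2.38 ± 0.35 and 1.40 ± 0.30, HHO1 rose by 0.97 ± 0.32, a call lost with median centring and without 0h B, 0h C, 30h A or 30h B, and HTA2 changed by 0.28 ± 0.31, or by -0.22 with median centring. Of 11 genes for separating daughter cells 1 rose and 1 fell. DSE2, a daughter-specific wall protein, rose by 1.54 ± 0.36, ASH1, a daughter-specific regulator, fell by 2.67 ± 0.30, and the chitinase gene CTS1 changed by -0.998 ± 0.39 and did not pass, although without 0h A it fell by 1.14 (adjusted p = 0.0217, limma).

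Of 49 genes of growth signalling and glucose repression 10 fell and 8 rose, with a median of -0.15, and without 0h A 19 fell. RGT1, the repressor of hexose transporter genes, fell by 2.64 ± 0.54, and CRF1, a repressor of ribosomal protein genes, rose by 2.52 ± 0.30. MIG3, a repressor relative, was at least 2.46-fold lower and not above background at 30h, and against 0h B alone it did not pass (adjusted p = 0.14, limma). ACT1, the actin gene often used as a reference, fell by 1.12 ± 0.30 (adjusted p = 0.0108, limma), and it did not pass without 0h C.

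Genes of mating and of meiosis, which vegetative diploid yeast keeps nearly silent, were higher at 30h. Of 64 listed meiosis and sporulation genes 60 were found on the array by name and 56 were tested, of which 40 rose and 0 fell, with a median change of 2.60. Against 0h B alone 40 rose, and without 0h A 43 rose and 1 fell. Of the tested members, 9 were not above background on any array at 0h, and with these at their bound the median was 2.46. MER1, a splicing factor made in meiosis, read 6.08, 3.95 and 4.30 at 0h and 10.68, 11.15 and 11.15 at 30h. Arrays of the times did not overlap, and the rise was 6.22 ± 0.51 (adjusted p = 3.75e-05, limma). MAM1, which holds sister centromeres together in meiosis, and PFS1, which acts in forming spore membranes, were not above background at 0h and were at least 21.2-fold and 19.0-fold higher at 30h. Of 36 mating and haploid genes 25 rose and 2 fell, with a median of 2.27. FIG1, made in response to pheromone, rose by 5.25 ± 1.02, STE3, the receptor for a-factor, by 4.17 ± 0.47, and RME1, a repressor of meiosis, by 4.95 ± 0.42.

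Markers of other cell states were read on each array. The 10 markers of sporulating cells include SPS19, which is also counted among the peroxisome and beta-oxidation genes. All 10 markers of sporulating cells were above background on every 30h array, and 4 were on every 0h array; their summed signal over the array's median gene ranged from 1.40 to 2.82 at 0h and from 10.8 to 14.1 at 30h. Of 11 markers of mating haploid cells, 10 were above background on every 30h array and 7 on every 0h array, and their summed signal was 1.604 to 6.19 and 14.3 to 17.6. The same measure for 6 bright housekeeping genes moved down, with a range of 28.6 to 68.6 on the 0h arrays and of 13.7 to 17.3 on the 30h arrays. These sums use deposited signals without normalisation, so they depend on the range of each array, which differed between the times. The median percentile at 0h and 30h was 8.12 and 45.5 for sporulation markers and 11.5 and 59.2 for mating markers. For the housekeeping genes it was 80.1 and 84.7. The part of sporulating or mating cells in the changes was not tested. The labels name no sporulating or mating cells.

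Most of the largest rises were of reading frames without a standard gene name. With non-overlapping arrays required, the 10 largest rises that were called held 3 sporulation or meiosis genes, PFS1, MER1 and MAM1, and 7 reading frames known only by a systematic name. YBR296C-A and YEL075C, the latter with shared probes, were not above background at 0h and were at least 31.0-fold and 19.1-fold higher at 30h. YDL159W-A rose by 6.44 ± 0.66, YKL183C-A by 6.34 ± 0.40, YOR365C by 6.19 ± 0.43, YLR042C by 6.17 ± 0.49 and YDL218W by 6.14 ± 1.03. The 10 largest falls were RPL13A, ICL1, RPS0A, URA6, THS1, ILV1, TMA7, MRPL20, STM1 and APT1, each described with its group.

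For most called genes the largest step lay between 4 h and 8 h. When all 12 arrays were normalised together, that step was the largest of the 3 successive steps for 1176 (79.2%) of the 1484 genes called higher and for 1190 (74.7%) of the 1594 called lower. The step from 0 h to 4 h was the largest for 216 and 268 of them, and the step from 8 h to 30 h for 92 and 136. Several groups moved at other times. The median ribosomal protein gene changed by -0.17, -0.61 and -1.30 over the successive steps, the last of which lies between arrays of like range. Assembly factors changed by -1.86 from 0 h to 4 h and then by 0.75 and -0.06, and genes of the polymerase I and III group by -1.35, 0.48 and -0.05. Maltose genes had their largest median step, 1.07, in the first 4 h, and glycolysis genes changed by 1.82 and then by -1.17 and -0.58. The meiosis, mating and seripauperin groups had medians of 2.50, 2.33 and 3.60 between 4 h and 8 h. The range of the arrays changed at the same point: the SD of log2 signals was 2.07 to 2.24 on every array of 0 h and 4 h, and 1.40 to 1.46 on every array of 8 h and 30 h. Because each time lies wholly on 1 side of that change, it cannot be told apart from the time of sampling.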

How the data were processed

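The deposited table holds 1 linear intensity signal per probe set and array, made with GCOS 5.0 and MAS5 per the submitters' processing notes; their parameters are not given in the sources used here. Because these intensity values were not on 1 scale across arrays, log2 signals of the 6 arrays were quantile-normalised over S. cerevisiae genes, without a pseudocount.

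Of 10928 probe sets, 5685 named 1 S. cerevisiae gene and 4915 1 S. pombe gene in a platform annotation that can be old; 46 named several genes, 68 none, 213 were controls and 1 had a clone name of neither species. Each gene had 1 probe set, preferring those without an ending for shared probes (68 tested genes have one), then the brighter. Genes with a mean at or below background (log2 ratio to the 95th percentile of S. pombe probe sets on each array) were left out (191). Groups were compared with limma 3.58.1 in R 4.3.3 (lmFit, eBayes with trend, 4 residual degrees of freedom), two-sided, with Benjamini-Hochberg adjustment over all tested genes at 0.05. A gene below background on all 3 arrays of a time has "at least N-fold": the bright mean against, per dim array, the higher of background and its own signal. No pair of arrays held identical values. The number of arrays limits the precision. Steps were tested on simulated data in which few genes changed, as many up as down, and both times had the same range. The real arrays differ in range between the times and most genes were called, so that test does not cover this case.

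The members and all 45 gene lists were chosen with earlier results of these data known, so list counts are descriptions. Of 1551 list entries, 1502 matched a probe set by symbol and 1463 were tested. Named genes are the 10 largest rises and falls with arrays that do not overlap and the same direction against 0h B alone, the 3 members of each list with the largest absolute change, 31 genes chosen for their role, and copies in ribosomal protein pairs, which were added after their values were seen. Alternatives were another normalisation, filter, pseudocount, sample set or model, and leaving out each array.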

Additional observations from a re-analysis of the deposited data

How the results depend on the processing

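Scale limits these results most. With the deposited signals, not normalised, 270 genes were called higher and 3279 lower, the median over all genes was -1.87, and the share of calls that were higher went from 48.2% to 7.61%. Under that setting the medians turned negative for maltose (-0.65), peroxisome (-0.93), sulfate (-0.78), autophagy (-1.29), zinc (-1.74), thiamine (-0.47) and cell cycle genes (-1.11), as did the called or named changes of SUC2 (-0.90), HXK2 (-2.25), ELO1 (-0.57), DSE2 (-0.55), HHO1 (-1.16), TDH3 (-2.21), HXT3 (-2.96), MAL31 (-1.61), HSP12 (-2.26), COX5B (-1.20), OLE1 (-2.76), HTA2 (-1.98), HEM13 (-0.93) and PHO84 (-1.24). Median centring (1383 higher, 1562 lower) turned HXT3 (-1.20), HSP12 (-0.50), HXK2 (-0.49), TDH3 (-0.45), HTA2 (-0.22) and OLE1 (-0.996). The cause was not tested. The other settings kept both totals within 1.5 times: 1476 and 1593 with quantiles over all probe sets, 1502 and 1611 with a pseudocount of 16, 1511 and 1606 with no filter, 1376 and 1556 with a stricter one, 1953 and 2141 with array weights (whose estimation gave a convergence warning), 1688 and 1812 with all 12 arrays, and 1482 and 1591 without the trend. Leaving out 1 array gave 1222 to 1778 higher and 1293 to 1920 lower. Arrays with the same letter did not deviate together (correlations of 0.034, -0.017 and 0.035). With 3 arrays per time and 0h A apart from the other 0h arrays, this cannot decide whether letters pair samples. With the replicate block 1444 genes were higher and 1543 lower.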

Other observations

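Reading frames without a standard gene name were called higher more often than named genes. Of 129 tested frames whose systematic name ends in a suffix such as -A, which mostly mark small frames added to the annotation late, 81 (62.8%) were higher at 30h and 10 (7.75%) lower, with a median change of 1.94. Their median level moved from the 15.8th to the 65.2nd percentile of the 5635 S. cerevisiae genes with a probe set. All tested genes of the lowest level bin had a median at percentile 17.2 at 0h and 40.9 at 30h, with 53.1% higher and 7.44% lower. Of the 129 frames, 9 were not above background on any 0h array. Whether the frames differ from named genes of like level was not tested. Of 479 other frames with only a systematic name, 197 were higher and 81 lower. Of 4836 genes with a standard name, 1206 were higher and 1503 lower.

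The S. pombe probe sets, which served as background, also differed a little by time. Spearman's rho over them was 0.375 to 0.475 between 0h arrays, 0.418 to 0.461 between 30h arrays and 0.312 to 0.376 between a 0h and a 30h array. In deposited signal, background ranged from 17.3 to 20.7 on 0h arrays and from 12.6 to 14.9 on 30h arrays.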
